A study of Homo sapiens with 2 samples.

Results

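The ID genes (ID1, ID2, ID3 and ID4) and the E-protein genes (TCF3, TCF4 and TCF12) were examined in HEK293T cells that overexpress the homeobox transcription factor IRX1. The 7 genes were taken as a family, and every probe set that the platform annotation pairs with exactly 1 of these symbols was used, 35 of 54675 on the array. A further probe set, which the annotation gives to ID2 together with the ID2B pseudogene, was left out. All 7 genes had at least 1 probe set with a mean of the 2 signals of at least 183, the median over all probe sets, as had 12193 of 19775 named genes, and 26 of the 35 probe sets passed this filter. Changes are log2 ratios of the IRX1::GFP signal to that of the GFP control, so that positive values mean higher with IRX1::GFP, and a gene is represented by its brightest probe set unless stated otherwise. Where 1 of the signals of a probe set was under background, its fold is a lower bound and is written as "at least". Counts at 2-fold use the measured ratio, so a probe set counted there can have a bound of less than 2-fold.

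E proteins are basic helix-loop-helix transcription factors that are made in most tissues. They bind the E-box, a DNA word read CANNTG, as homodimers or together with a tissue-restricted partner such as a muscle, nerve or blood cell factor. ID proteins carry the helix-loop-helix but lack the basic region that touches DNA, so that an E protein held by an ID protein does not bind its site. ID genes are well known as targets of bone morphogenetic protein (BMP) signalling, and the balance between ID and E proteins is known to set the pace of differentiation in lymphocytes, muscle and the nervous system. TCF3 encodes E12 and E47 by alternative splicing, TCF4 encodes E2-2 and TCF12 encodes HEB. These genes are distinct from TCF7L1 and TCF7L2, which act in WNT signalling and are often called TCF3 and TCF4 in older work.

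The measured cells were HEK293T, a human embryonic kidney line with the large T antigen of simian virus. One culture condition received pcDNA3.1-IRX1::GFP and the other pcDNA3.1-GFP, both by polyethylenimine, and GFP-positive cells were sorted after 48 h. RNA was hybridised to HG-U133 Plus 2.0 arrays, 1 for IRX1::GFP and 1 for the GFP control. Expression was therefore transient, from a plasmid, and read in a single line.

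With 1 array per condition there was no replicate, and no test, error between cultures or p-value could be given for any gene. The text of the study describes the hybridisation as replicated, and only a single array of each condition was analysed here. Whether the RNA of an array came from 1 culture or from a pool was not settled from the sources used here. The deposited MAS5 signal is an intensity on a linear scale that has the same trimmed mean on both arrays. As a level for silent genes, called background here, the 90th percentile over 107 probe sets of olfactory receptors was taken on each array, 179 for IRX1::GFP and 143 for the GFP control. The probe set for IRX1 itself read 57 with IRX1::GFP and 33.1 in the GFP control, both under background, and whether it lies in the transfected cDNA is not known, so the labels could not be checked with it. The 3-prime over 5-prime signal ratio of the ACTB control, a sign of RNA quality, was 1.64 with IRX1::GFP and 3.23 in the GFP control. For GAPDH it was 1.01 with IRX1::GFP and 1.22 in the GFP control, and the part of this difference in the values given here was not tested. All 7 genes chosen as marks of the line (KRT8, KRT18, VIM, NEFL, NEFM, PAX2 and LHX1) were above background with IRX1::GFP, PAX2 and LHX1 not in the GFP control. Among the 6 that passed the filter, 5 had ratios above 0 and 3 of these reached 2-fold, with a median log2 ratio of 0.99. PAX2 is 1 of these 3, but it passed the filter only through its IRX1::GFP signal and was at least 1.94-fold higher. NEFL, a neurofilament gene, was 2.73-fold higher and KRT18, a keratin gene, 2.19-fold higher. The summed signal of all 7, 51134 with IRX1::GFP and 48697 in the GFP control, is mostly that of VIM, which was 1.36-fold lower. Markers of other cell types were mixed. Under background on both arrays were PTPRC of blood cells, CDH5 and KDR of endothelium, MYH2 and CKM of muscle, and COL3A1 and LUM of fibroblasts. Above it on both were HBB and CD14 of blood cells, PECAM1 of endothelium, ACTA1 of muscle and COL1A1 of fibroblasts. CD3E, ALB and DCN were above it in the GFP control alone, and the hepatocyte gene APOA1 with IRX1::GFP alone, at least 2.20-fold higher. Of these ACTA1 read 852 with IRX1::GFP and 167 in the GFP control, CD14 read 856 with IRX1::GFP and 327 in the GFP control, and COL1A1 read 2571 with IRX1::GFP and 631 in the GFP control. The part of these genes in the values given here was not tested.

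The promoters of 4 members are shown. ID1 and TCF3 are the 2 genes whose brightest probe sets were at least 2-fold higher. ID2 and ID4 are 2 relatives whose brightest probe sets stayed within 2-fold. ID3 also stayed within 2-fold, and its window, which is not printed, holds no CANNTG. Each line gives the 250 bases before the RefSeq transcription start, 5′ to 3′ on the gene's own strand, with the E-box CANNTG in capitals. The windows are chr20:31605039-31605288 (plus strand), chr19:1652616-1652865 (minus strand), chr2:8681806-8682055 (plus strand) and chr6:19837120-19837369 (plus strand) of GRCh38.p14, the build of all coordinates given here, which come from RefSeq and not from the array.
ID1: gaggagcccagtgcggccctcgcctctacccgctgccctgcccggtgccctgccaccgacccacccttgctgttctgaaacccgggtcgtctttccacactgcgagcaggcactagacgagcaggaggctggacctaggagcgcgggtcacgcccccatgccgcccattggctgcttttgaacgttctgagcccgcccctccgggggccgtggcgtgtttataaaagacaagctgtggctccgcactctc
TCF3: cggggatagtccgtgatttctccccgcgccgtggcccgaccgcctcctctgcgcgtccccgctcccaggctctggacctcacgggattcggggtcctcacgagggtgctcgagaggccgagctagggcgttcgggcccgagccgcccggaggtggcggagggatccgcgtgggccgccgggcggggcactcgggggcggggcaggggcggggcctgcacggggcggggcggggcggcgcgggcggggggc
ID2: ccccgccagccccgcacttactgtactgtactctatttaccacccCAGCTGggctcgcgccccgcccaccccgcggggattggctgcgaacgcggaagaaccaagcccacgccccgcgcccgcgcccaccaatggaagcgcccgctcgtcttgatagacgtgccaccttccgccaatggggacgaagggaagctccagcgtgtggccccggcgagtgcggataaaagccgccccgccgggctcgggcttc
ID4: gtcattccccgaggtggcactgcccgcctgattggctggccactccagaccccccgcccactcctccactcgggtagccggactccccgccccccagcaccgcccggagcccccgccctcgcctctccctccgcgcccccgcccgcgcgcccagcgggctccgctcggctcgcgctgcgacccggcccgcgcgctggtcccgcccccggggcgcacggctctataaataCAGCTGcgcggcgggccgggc

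No CANNTG lies in the ID1 and TCF3 windows, nor in that of ID3. The ID2 and ID4 windows hold 1 each, in both cases CAGCTG, 205 bases before the start of ID2 and 21 bases before that of ID4. Of 35116 windows of the same length in the RefSeq table, 61.8% held CANNTG on either strand and 14% held CAGCTG, which is 1 form of it. TCF4 and TCF12 have several starts, and 5 of the 10 TCF4 windows and 2 of the 5 TCF12 windows held CANNTG. The palindrome ACANNTGT, bound by Iroquois proteins of the fly, always contains CANNTG, and was found in 1 of the 20 member windows (a TCF4 start) against 4.71% of all windows. The word GGCGCC, bound by SMAD proteins, was found in 1 of the 20, a TCF12 start, against 16.4% of all windows. These are letters in short windows and no measure of binding.

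With IRX1::GFP the family did not move as a block. By their brightest probe sets ID1 and TCF3 were at least 2-fold higher, TCF4 was at least 2-fold lower, and ID2, ID3, ID4 and TCF12 were within 2-fold. The calls of TCF3, TCF4 and ID2 depend on the choice of probe set, which for ID1, ID3 and TCF12 could not be varied, with 1 past the filter each. As means over probe sets, the log2 ratio was 0.90 for TCF3 and -0.96 for TCF4, both within 2-fold, and -1.01 for ID2, past it. For ID4 the mean was 0.29, above 0 but still within 2-fold, while 1 of its 5 probe sets was at least 2-fold higher. With plain _at probe sets alone TCF3 was at -0.061. Under this rule 0 member genes were at least 2-fold higher, but ID1, ID2 and ID3 have no such probe set and drop out. In all, 2 of 7 member genes were at least 2-fold higher, where 10.4% of all genes were, and 1 of 7 was at least 2-fold lower, where 5.34% of all genes were. These shares rest on 7 genes. Among all 12193 genes, 1267 were higher and 651 lower as deposited, and 1047 were higher and 850 lower after median centring. The median log2 ratio of all probe sets was 0.11, and that of the 12193 genes 0.07. The median of the 7 member genes was -0.24, so that ID2, ID3, ID4, TCF4 and TCF12 lay under both medians.

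**Figure D1:**
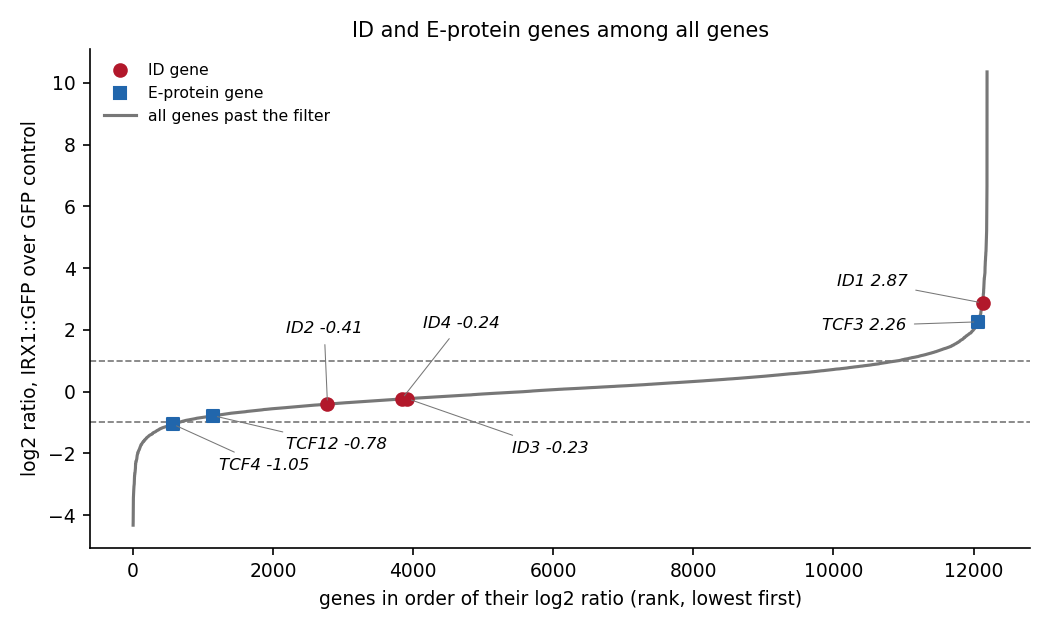
The log2 ratio, IRX1::GFP to GFP control (y axis), of 12193 genes in order of that ratio (x axis, rank), 1 array per condition, with the ID genes as red circles, the E-protein genes as blue squares and dashed lines at 2-fold. ID1 at 2.87 and TCF3 at 2.26 lie on the steep upper end, TCF4 at -1.05 on the lower shoulder, and the other 4 genes lie between the lines.

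ID1 (chr20:31605289-31606510) encodes an inhibitor that is rapidly induced by BMP and by serum in many cells. Its single probe set, 208937_s_at, read 11614 with IRX1::GFP and 1588 in the GFP control. This was 7.31-fold higher, a log2 ratio of 2.87, and 64 of 12193 genes had a larger ratio. Both signals lay far above background. In RNA from a sorted pool, more cells with a transcript and more RNA per cell cannot be told apart. No second probe set of ID1 was on the array, so agreement within the gene could not be examined. The name ends in _s_at, the platform's mark for probes that can bind several transcripts.

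ID2 (chr2:8682056-8684461), which besides E proteins is known to bind the retinoblastoma protein, had lower signals by each of its 2 probe sets. The brighter one, 201565_s_at, read 16922 with IRX1::GFP and 22425 in the GFP control, 1.33-fold lower. The dimmer, 201566_x_at, read 3588 with IRX1::GFP and 10973 in the GFP control, 3.06-fold lower. The direction was shared, but the size was not, at log2 ratios of -0.41 and -1.61. The mean of both, -1.01, lay just past 2-fold, while the brighter probe set alone did not. Over 5930 genes with several probe sets, log2 ratios within a gene had a pooled SD of 0.49, a spread that holds isoform differences but none between cultures, and for ID2 the SD was 0.85.

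ID3 (chr1:23557926-23559501), which like ID1 answers to BMP and serum, had 1 probe set, 207826_s_at. It read 6018 with IRX1::GFP and 7054 in the GFP control, 1.17-fold lower, a log2 ratio of -0.23. This difference was smaller than the spread between probe sets of one gene, which holds no difference between cultures. ID1 and ID3 thus differed in their ratios on the same pair of arrays.

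ID4 (chr6:19837370-19842197), known for its roles in neural and mammary cells, was measured by 5 probe sets, all past the filter. The brightest, 209291_at, read 7742 with IRX1::GFP and 9151 in the GFP control. The next, 209292_at, read 1687 with IRX1::GFP and 1910 in the GFP control, and 226933_s_at read 1272 with IRX1::GFP and 1348 in the GFP control. These 3 were all within 2-fold and slightly lower. By contrast, 209293_x_at read 1851 with IRX1::GFP and 890 in the GFP control, 2.08-fold higher. The dimmest, 229386_at, read 265 with IRX1::GFP and 140 in the GFP control, where it was not above background, and was at least 1.85-fold higher. It passed the filter only through its IRX1::GFP signal. The log2 ratios of ID4 ran between -0.24 and 1.06, with a median of -0.084.

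**Figure D2:**
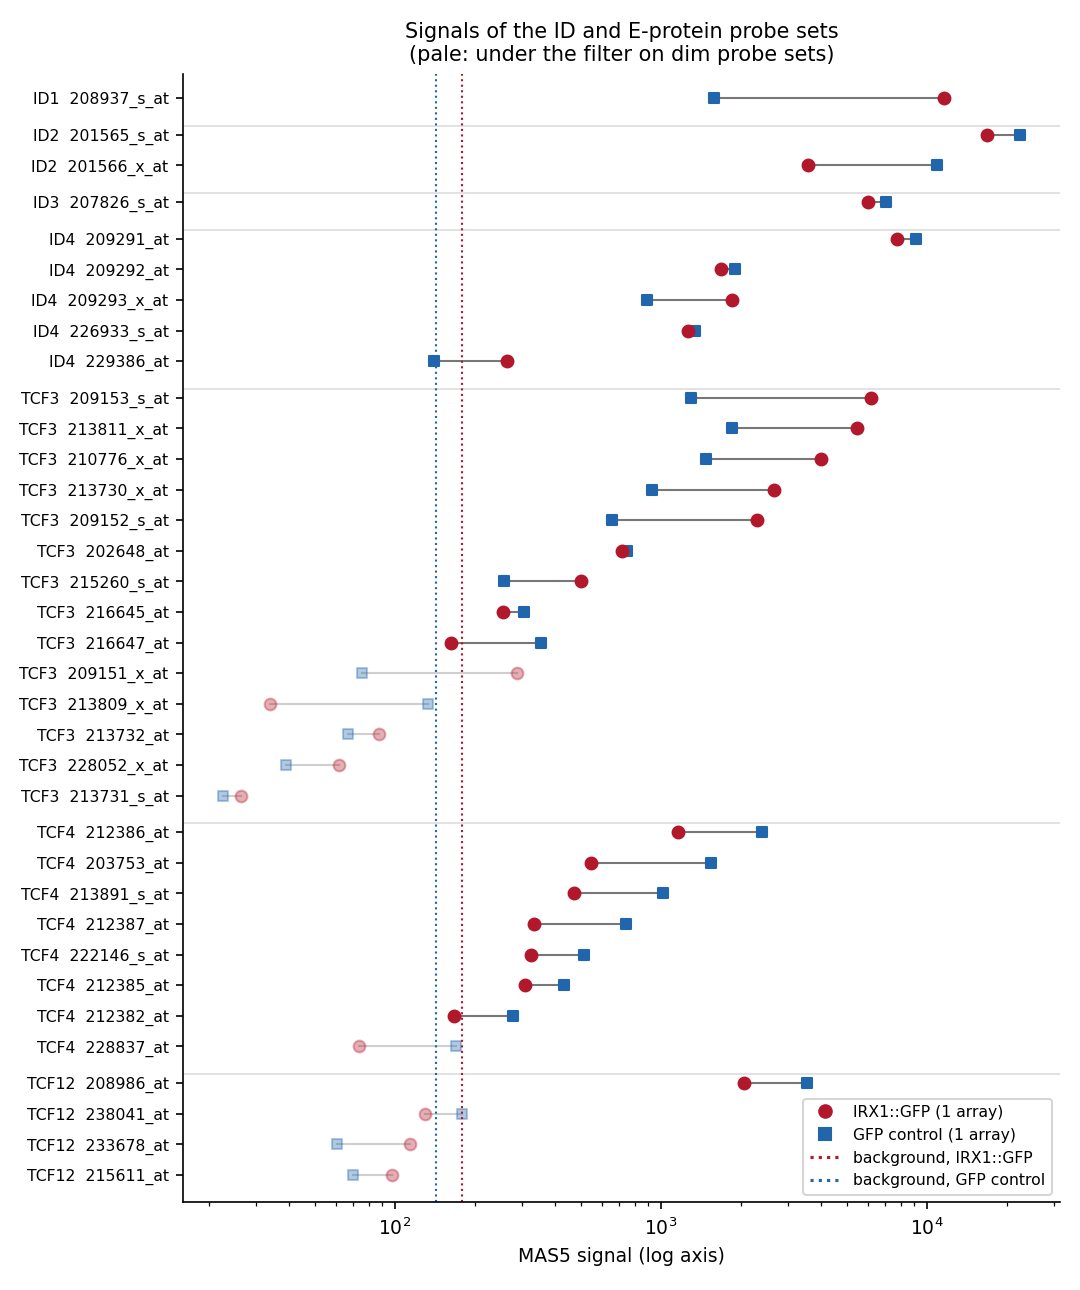
MAS5 signal (x axis, log scale) of all 35 probe sets of the 7 genes, with IRX1::GFP as red circles and the GFP control as blue squares, 1 array each, and dotted lines at the background of each array. Probe sets under the filter are pale, and the TCF4 sets lie to the left with IRX1::GFP while 6 of the brighter TCF3 sets lie to the right.

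TCF3 (chr19:1609292-1652615), whose products E12 and E47 are needed for B-cell development, was higher with IRX1::GFP on its brightest probe sets and not on all of them. Of 14 probe sets 9 passed the filter, 5 of them at least 2-fold higher, 1 at least 2-fold lower and 3 within 2-fold. The lower set, 216647_at, passed only through its GFP control signal, and its IRX1::GFP signal was under background. The brightest, 209153_s_at, read 6202 with IRX1::GFP and 1297 in the GFP control, 4.78-fold higher. The second, 213811_x_at, read 5464 with IRX1::GFP and 1862 in the GFP control, 2.93-fold higher. Its log2 ratio of 1.55 lay close to the 1.44 of 210776_x_at, the 1.53 of 213730_x_at and the 1.81 of 209152_s_at. All of these sets had signals above background on both arrays, but their names mark probes that can bind other transcripts. The dimmer 215260_s_at read 500.5 with IRX1::GFP and 258 in the GFP control, 1.94-fold higher.

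The other 3 TCF3 probe sets past the filter, the only ones whose names end in plain _at, did not rise. Of these 202648_at read 715 with IRX1::GFP and 746 in the GFP control, 1.04-fold lower. The next, 216645_at, read 255 with IRX1::GFP and 306 in the GFP control. The third, 216647_at, which the annotation pairs with the same sequence record as 216645_at, read 163 with IRX1::GFP, under background, and 354 in the GFP control, at least 1.98-fold lower. Past the filter, the 6 probe sets with _s_at or _x_at ran from 0.96 to 2.26 on the log2 scale, and the 3 with _at from -1.12 to -0.061. The end at -1.12 is that of 216647_at, with 1 signal under background. How often such classes lie apart in other genes was not counted. Sets marked _s_at or _x_at can bind other transcripts, and the files do not place any of the 9 along the gene, so whether the classes read different transcripts was not tested. Of the 5 TCF3 probe sets under the filter, 209151_x_at read 288 with IRX1::GFP and 75.3 in the GFP control, where it was not above background, at least 2.01-fold higher. The other 4 were under background on both arrays.

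**Figure D3:**
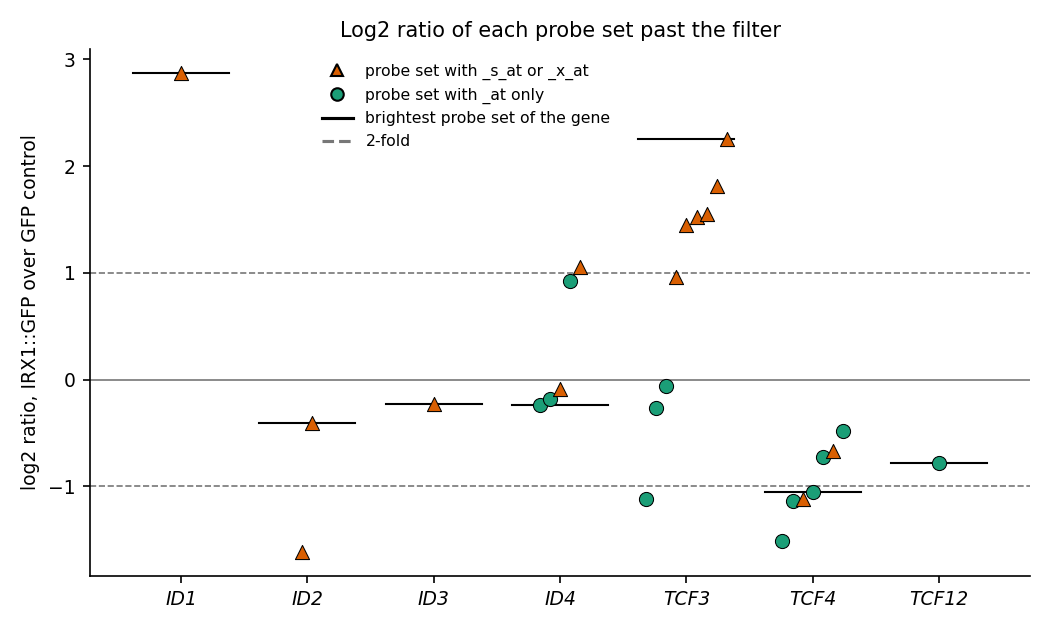
Log2 ratio, IRX1::GFP to GFP control (y axis), of the 26 probe sets past the filter, by gene (x axis), as orange triangles for names with _s_at or _x_at and green circles for plain _at, with a black bar at the brightest probe set of each gene and dashed lines at 2-fold. The TCF3 triangles lie at 0.96 and above while its circles lie under 0, and all 7 TCF4 probe sets lie under 0.

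TCF4 (chr18:55222185-55635957), known as the factor that plasmacytoid dendritic cells depend on and for its role in brain development, was lower with IRX1::GFP on every probe set. Of 8 probe sets 7 passed the filter, and 4 of these were at least 2-fold lower. The brightest, 212386_at, read 1161 with IRX1::GFP and 2413 in the GFP control, 2.08-fold lower. The strongest difference was that of 203753_at, with 545 for IRX1::GFP and 1551 for the GFP control, 2.85-fold lower. Both probe sets were well above background, and 213891_s_at, 2.17-fold lower, and 212387_at, 2.20-fold lower, had similar ratios. The 3 within 2-fold were 222146_s_at, 1.59-fold lower, 212385_at, 1.40-fold lower, and 212382_at, at least 1.55-fold lower because its IRX1::GFP signal of 168 was under background. The set 212382_at passed the filter only through its GFP control signal of 278. The eighth, 228837_at, read 73.5 with IRX1::GFP and 169.7 in the GFP control and did not pass the filter. No fold is given for it, since a bound against background came to less than 1. The log2 ratios past the filter ran from -1.51 to -0.48 with a median of -1.05. Of 58 genes with at least 7 probe sets past the filter, 15 had all of them under 0 and 4 had all of them above 0. TCF4 has 7 such probe sets only with 212382_at counted.

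TCF12 (chr15:56918090-57291310), which encodes HEB, an E protein of T-cell and muscle development, had 1 of 4 probe sets past the filter. This one, 208986_at, read 2066 with IRX1::GFP and 3551 in the GFP control, 1.72-fold lower, a log2 ratio of -0.78. The difference stayed within 2-fold. It exceeded the spread of 0.49 between probe sets of one gene, which holds no difference between cultures and so is no measure of error. Of the dimmer ones, 238041_at read 130.2 with IRX1::GFP and 179.7 in the GFP control, at least 1.01-fold lower, and the other 2 were under background on both arrays.

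Of the 26 probe sets of the family that passed the filter, 7 were at least 2-fold higher, where 9.15% of the 22633 named probe sets past the filter were, and 6 at least 2-fold lower, where 6.02% of them were. Of the 7 higher ones 5 belong to TCF3, 1 to ID1 and 1 to ID4. Of the 6 lower ones 4 belong to TCF4, 1 to ID2 and 1 to TCF3. The lower TCF3 set, 216647_at, had an IRX1::GFP signal under background. With signals under 182 raised to that level, 7 sets were higher and 5 lower by 2-fold or more. Probe sets of one gene are not independent of each other. TCF3 was among the genes whose probe sets differed most. Its SD of 1.13 was reached by 53 of 2711 genes with at least 3 probe sets past the filter, that is 1.96% of them. The SD of TCF4, 0.35, was reached by 45.7% of the same genes, and that of ID4, 0.64, by 12.7%.

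BMP ligands, receptors and SMAD proteins, the best known input to ID genes, were measured next. The list also held inhibitors of this signalling, SMURF2 among them. Of its 18 genes that passed the filter 15 were within 2-fold, 1 reached 2-fold upward and 2 reached it downward. Over all genes 10.4% reached it upward and 5.34% downward. The median log2 ratio was -0.27, beside 0.07 over all genes. The BMP type I receptor gene ACVR1 read 557 with IRX1::GFP and 1309 in the GFP control, 2.35-fold lower. SMAD1, a signal transducer of BMP receptors, read 1613 with IRX1::GFP and 3254 in the GFP control, 2.02-fold lower on its brightest probe set, while its other probe set past the filter was lower by less than 2-fold. The ligand gene BMP6 read 260 with IRX1::GFP and 110 in the GFP control, where it was not above background, at least 1.82-fold higher. It passed the filter only through its IRX1::GFP signal, and it is counted as upward by its measured log2 ratio of 1.24. The genes with the highest signals were SMURF2, a ubiquitin ligase acting on SMAD proteins, at 3561 with IRX1::GFP and 6777 in the GFP control, and SMAD5, at 4602 with IRX1::GFP and 4485 in the GFP control. In all, 12 of the 18 genes had ratios under 0. Activating and inhibiting genes are counted alike here, so neither this count nor the median measures BMP input.

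Tissue-restricted basic helix-loop-helix genes, whose proteins pair with E proteins, were mostly dim, as 22 of the 36 on the array were under background on both arrays. Among the 11 that passed the filter, signals of 3 were higher and of 1 lower by 2-fold or more, beside shares of 10.4% and 5.34% over all genes. OLIG1, a factor of the oligodendrocyte lineage, read 945 with IRX1::GFP and 219 in the GFP control, 4.32-fold higher. Its relative OLIG2 read 1972 with IRX1::GFP and 658 in the GFP control, 3-fold higher. MESP1, a factor of early mesoderm, read 1324 with IRX1::GFP and 487 in the GFP control, 2.72-fold higher, while its second probe set past the filter had a ratio under 0. NHLH2, a factor of developing neurons and the brightest gene of the list, read 2946 with IRX1::GFP and 5932 in the GFP control, 2.01-fold lower. The median of the list was 0.62, beside 0.07 over all genes. It counts TCF24, at 298 with IRX1::GFP and 165 in the GFP control, which passed the filter only through its IRX1::GFP signal.

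Among coregulators of E proteins 12 genes passed the filter, 10 of them within 2-fold, 1 higher and 1 lower beyond it, beside 10.4% and 5.34% over all genes, with a median of -0.23. The genes beyond it were a pair of related acetyltransferase genes, KAT2A at 2566 with IRX1::GFP and 1198 in the GFP control, 2.14-fold higher, and KAT2B at 807 with IRX1::GFP and 1795 in the GFP control, 2.22-fold lower. Each had 1 probe set past the filter. HDAC1, a histone deacetylase and the brightest of them, read 23708 with IRX1::GFP and 21271 in the GFP control. SKP2, which marks E proteins for degradation, read 9415 with IRX1::GFP and 5474 in the GFP control, 1.72-fold higher, and 1 of its 3 probe sets was past 2-fold.

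Of 9 genes that act on the turnover of ID proteins, 0 were higher by 2-fold or more and 1 was lower by as much, beside 10.4% and 5.34% over all genes, with a median of -0.34. This was CDC27, a subunit of the anaphase-promoting complex, at 2662 with IRX1::GFP and 7029 in the GFP control, 2.64-fold lower, and 3 further probe sets of the gene were lower by less than 2-fold. USP1, the protease that protects ID proteins from degradation, read 24483 with IRX1::GFP and 30908 in the GFP control. CDC20, which activates the same complex, read 14745 with IRX1::GFP and 12318 in the GFP control, and both stayed within 2-fold. SMURF2, 1.90-fold lower, is counted in this list and also in that of BMP signalling, so the 2 medians are not independent.

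Of 22 genes known to respond to E or ID proteins 16 passed the filter. Of these 11 were within 2-fold, 3 higher and 2 lower beyond it, beside 10.4% and 5.34% over all genes, with a median of 0.51. CDH1, the E-cadherin gene, which E proteins are known to repress, read 463 with IRX1::GFP and 71.5 in the GFP control, under background there, at least 3.23-fold higher. CDKN1C, a cyclin-dependent kinase inhibitor gene, read 2319 with IRX1::GFP and 789 in the GFP control, 2.94-fold higher, and 3 of its 4 probe sets were past 2-fold. CXCR4, a chemokine receptor gene, read 3999 with IRX1::GFP and 1688 in the GFP control, 2.37-fold higher, with all 3 of its probe sets past 2-fold. CDKN2B, also a cyclin-dependent kinase inhibitor gene, read 1105 with IRX1::GFP and 4118 in the GFP control, 3.73-fold lower on its 1 probe set past the filter. EBF1, a B-cell factor that E proteins activate, read 41 with IRX1::GFP, under background, and 368 in the GFP control, at least 2.06-fold lower. Among the genes beyond 2-fold, CDH1 and EBF1 passed the filter only through the condition in which they were high. Some genes within 2-fold that count in the median did so too. CDKN1A, a cell cycle inhibitor gene that E proteins are known to activate, read 9279 with IRX1::GFP and 9178 in the GFP control. CDKN2A, which ID1 is known to repress, read 8908 with IRX1::GFP and 11402 in the GFP control, 1.28-fold lower. The list thus held genes on both sides, and all 5 lists describe 2 arrays only.

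**Figure D4:**
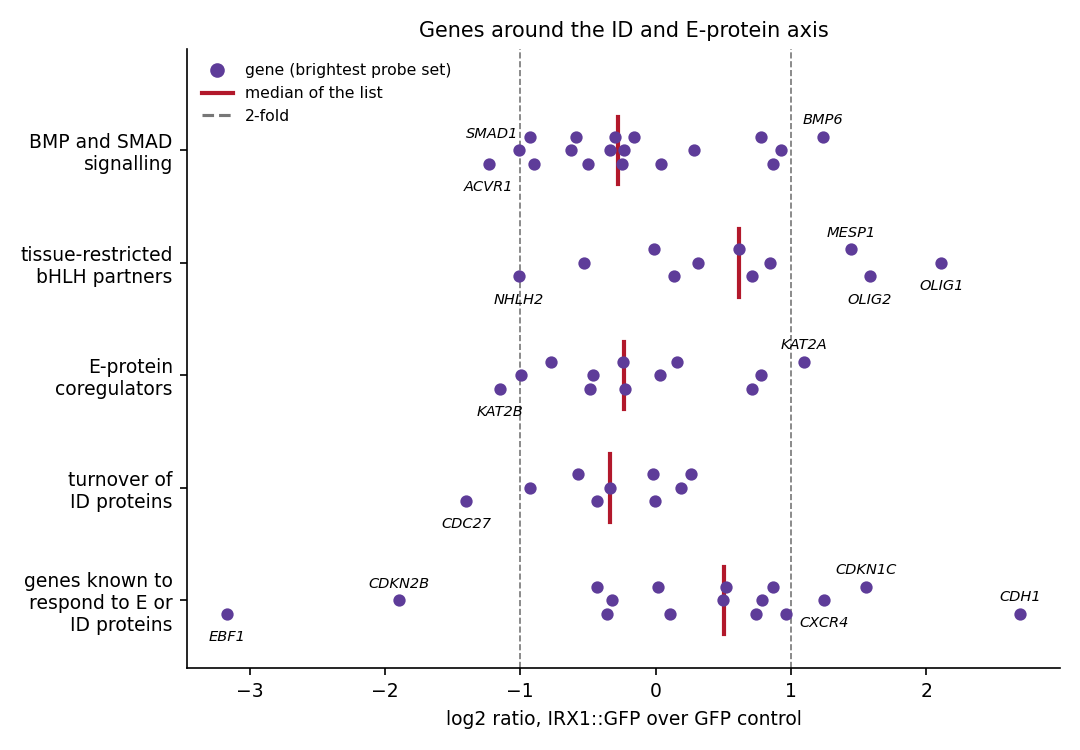
Log2 ratio, IRX1::GFP to GFP control (x axis), of the genes past the filter in 5 lists (y axis), each point 1 gene by its brightest probe set, with red bars at the list medians and dashed lines at 2-fold, 1 array per condition. Medians run from -0.34 for turnover of ID proteins to 0.62 for the tissue-restricted partners, and most genes lie between the dashed lines.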

How the data were processed

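RNA of GFP-sorted HEK293T cells was measured on 1 array per condition. The values deposited by the authors were MAS5 signals, that is linear intensity values scaled within each array. The submitters' processing notes name MAS5, for which no version was found in the sources used here. The mean without the lowest and highest 2% was 1000.1 on both arrays.

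Of 54675 probe sets, 41097 had 1 gene symbol in the platform annotation, and 1801 had several and were not used. Symbols were updated by gene identifier through the RefSeq table of GRCh38.p14, which held 41043 of them. Probe sets with a mean signal of at least 183, the 50th percentile, were kept, and a gene was represented by its brightest probe set. Genes at or beyond 2-fold were called higher or lower. Where 1 signal was under background, the fold is a lower bound against that level, whereas calls use the measured ratio. Of each list the text names the members past 2-fold, up to 5 by size of the ratio, and the 2 brightest. Members and lists were chosen with earlier results of these data known. CANNTG and 3 other words were searched in RefSeq promoter windows. Scaling, filter, floor and the choice of probe set were varied. The steps were tested on simulated data. Python 3.11.15, numpy 2.4.6, pandas 2.3.3 and statsmodels 0.14.6 were used.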

Additional observations from a re-analysis of the deposited data

How the results depend on the processing

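With 1 array per condition no array could be left out, the number of arrays limits the precision, and signals near background carry the least certain ratios. No paired analysis was possible because a single array was analysed for each of the conditions. Under median centring, quantile normalization and loess, the log2 ratios of all 7 genes kept their direction and their side of 2-fold. The other filters and the floor leave the ratio of these bright probe sets as it is and say nothing about it.

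The choice of probe set mattered more. As the mean over probe sets, the log2 ratio was -1.01 for ID2 (also as the median), 0.29 for ID4 and 0.90 for TCF3, which left 1 member gene at least 2-fold higher. The count of lower member genes was again 1, but this was ID2 in place of TCF4, whose mean was -0.96. As the median over probe sets TCF3 was at 1.44, and 2 member genes were at least 2-fold lower. With plain _at probe sets alone, TCF3 was at -0.061 and 0 member genes were at least 2-fold higher, ID1, ID2 and ID3 having no such probe set. The filter at the 75th percentile left 3 member probe sets at least 2-fold lower, and 513 of all genes higher and 415 lower. Without a filter these were 3456 and 1983. The cause of these differences was not tested.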
